A study of Homo sapiens with 6 samples.

Results

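The cytosolic ribosomal protein genes were read in MDA-MB-231, an established human line of triple-negative breast cancer, grown in medium with serum. Cells were exposed for 48 h to 50 µM TCI04, of which only the code name is given, or to phosphate-buffered saline (PBS). Each group held 3 Affymetrix arrays hybridised with cRNA made from total RNA. Nothing in the labels tells whether each array had its own culture, so the spread behind the p-values may be technical, and only 1 cell line was used. Members were the genes with a symbol of RPL or RPS, digits and at most 1 letter A, X or L, together with the stalk genes and RPSA, wherever a probe set carried that gene symbol alone. This gave 56 genes on 117 probe sets, 35 of the large and 21 of the small subunit, out of 81 RefSeq genes whose symbol meets the same rule. The probe set with the highest mean signal stood for each gene. Of the 56, 55 passed the filter on low values and were tested, among 13679 tested genes. The remaining member, RPL3L, the muscle paralog of RPL3, had signals of 1.92 to 18.5 on the 6 arrays, under the filter at a signal of about 33.9. RPLP0, RPL5, RPL10, RPS27A and RPSA had no probe set of their own symbol alone and were not analysed here.

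Ribosomal proteins fold with ribosomal RNA into the small subunit, which reads the mRNA, and the large subunit, which joins amino acids and releases the growing chain through an exit tunnel. Their mRNAs are among the most abundant of dividing cells. Nearly all begin with a C followed by a run of C and T, the terminal oligopyrimidine (TOP) tract, through which the mTORC1 pathway and LARP1 adjust the translation of these mRNAs as a class. That control acts on translation, whereas arrays measure mRNA level.

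To show what the genes share at their starts, the 30 bases around the annotated gene start (15 before it and 15 from it on) are given for 11 of the named members, from RefSeq on build GRCh38.p14. Capitals mark a tract, defined as an unbroken run of at least 7 C or T that begins with C. The lines below hold the 7 genes whose TCI04 arrays all lay under the PBS arrays, then RPS6 and RPLP1, then RPS27L and RPL10L, paralogs without a tract in this window.
RPS4X (chrX:72277234-72277263, minus strand): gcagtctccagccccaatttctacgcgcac
RPS28 (chr19:8321481-8321510, plus strand): tccccgaagcacgtgaCTCCTCTCCgccag
RPL10A (chr6:35468386-35468415, plus strand): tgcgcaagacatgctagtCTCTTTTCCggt
RPL14 (chr3:40457324-40457353, plus strand): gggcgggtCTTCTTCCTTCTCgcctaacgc
RPL27 (chr17:42998404-42998433, plus strand): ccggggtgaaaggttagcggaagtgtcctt
RPS3 (chr11:75399503-75399532, plus strand): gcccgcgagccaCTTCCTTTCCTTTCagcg
RPL27A (chr11:8682777-8682806, plus strand): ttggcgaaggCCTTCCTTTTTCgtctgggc
RPS6 (chr9:19380222-19380251, minus strand): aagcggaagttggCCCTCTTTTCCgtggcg
RPLP1 (chr15:69452803-69452832, plus strand): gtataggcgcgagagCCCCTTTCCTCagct
RPS27L (chr15:63157463-63157492, minus strand): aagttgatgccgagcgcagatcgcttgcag
RPL10L (chr14:46651767-46651796, minus strand): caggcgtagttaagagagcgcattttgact

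The RefSeq table held 55 start windows for 48 of the 56 members. A tract was present in 40 of these windows (72.7%), against 5492 of 35116 windows of all genes (15.6%). On the opposite strand it was found in 1 member window (1.82%) and in 13.7% of all windows. In the longer window of 300 bases (250 before the start and 50 from it on, either strand), CTTTCC was present in 43.6% of member windows and 26.3% of all windows. CTCTTTCC, which contains CTTTCC, was present in 12.7% and 3.04%. CCGGAAG, the core bound by ETS factors such as GABP, was present in 40% and 10.3%, AAGATGGC, a core bound by YY1, in 7.27% and 2.89%, and the TATA-like TATAAA in 7.27% and 11.5%. A match describes these letters and is not a shown binding site. The 38 tested members with a tract had a median log2 difference of -0.11 and the 10 without one -0.12. The window was placed at the annotated start and not at a measured start of the mRNA. A gene without a tract in it may therefore still have a TOP tract, so the 2 groups do not separate TOP mRNAs from others.

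The authors had scaled the 6 arrays to an equal trimmed mean of 500.1. By RNA quality, TCI04 replicate 3 stood apart: its 3' to 5' signal ratio of the ACTB control was 3.33, against 1.64 to 1.72 on the other 5 arrays (exact two-sided permutation test of TCI04 against PBS, p = 0.3; the smallest value possible with 3 arrays each is 0.1). Of the 6 control probe sets for 18S and 28S ribosomal RNA, 4 were lower on every TCI04 array than on any PBS array, and these 4 were lowest on TCI04 replicate 3. The 5' probe set for 18S measured 10679 to 14008 with PBS and 8709, 9319 and 1744 in TCI04 replicates 1, 2 and 3. The parts of these array differences in the results below were not tested, but values without single arrays are given. Of the line's markers, VIM measured 30225 and AXL 18723 with PBS (means), CDH1 and PGR lay under the filter, and EPCAM and ERBB2 measured 405 and 466, while ESR1 passed the filter at 29.3 with PBS and 46.6 with TCI04. Of the 15 leukocyte, fibroblast and endothelial markers, 13 had a probe set of their own. The 5 above the filter were CD3E, COL1A1, DCN, PECAM1 and KDR, and PTPRC, LUM and CDH5 were among those that were not.

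The comparison asked whether TCI04 changed the mRNA level of ribosomal protein genes. In bulk RNA, fewer cells with a given level and less RNA per cell cannot be told apart. No member passed the adjusted threshold of 0.05 (limma, smallest adjusted p = 0.697), at which 0.00731% of all genes were called. At an unadjusted p under 0.05, 8 members (14.5%) were lower with TCI04 and 0 higher, where all genes gave 4.11% and 2.89%. The direction was shared across the class on the authors' scaling: 50 of 55 members (90.9%) had a lower mean with TCI04, against 50.7% of all genes. After quantile normalization 25 of 55 did, against 45.1% of all genes. With arrays centred on their medians 2 of 55 did, against 22.1% of all genes. Later counts under these 2 scalings stand beside the same shares. The median log2 difference was -0.11, a level 1.08-fold lower, with a middle range (25th to 75th percentile) of -0.13 to -0.08, and it was -0.0026 for all genes. Each log2 difference is the mean of log2(signal + 10.96) with TCI04 minus that with PBS, as fitted, where 10.96 is the 20th percentile of all values.

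The groups did not overlap for 7 of 55 members (12.7%), all lower with TCI04, against 6.89% of all genes, and for 0 members on the higher side, against 6.65%. Both counts of lower members moved with single arrays. Without PBS replicate 1, 46 members did not overlap, against 13.6% of all genes, and 40 had an unadjusted p under 0.05, against 3.66%. Without PBS replicate 2 or TCI04 replicate 1, 0 members had such a p (all genes, 3.67% and 4.2%), and without PBS replicate 3, 1 did (2.79%). In each of these 3 fits 7 or 8 members did not overlap, where all genes gave 11.3% to 12.6%. Without TCI04 replicate 2 or 3, the counts were 12 and 9 by p (all genes, 4.71% and 3.94%) and 18 and 11 by lack of overlap (12.1% and 12.3%). In none of these fits did a member pass the adjusted threshold.

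**Figure D1:**
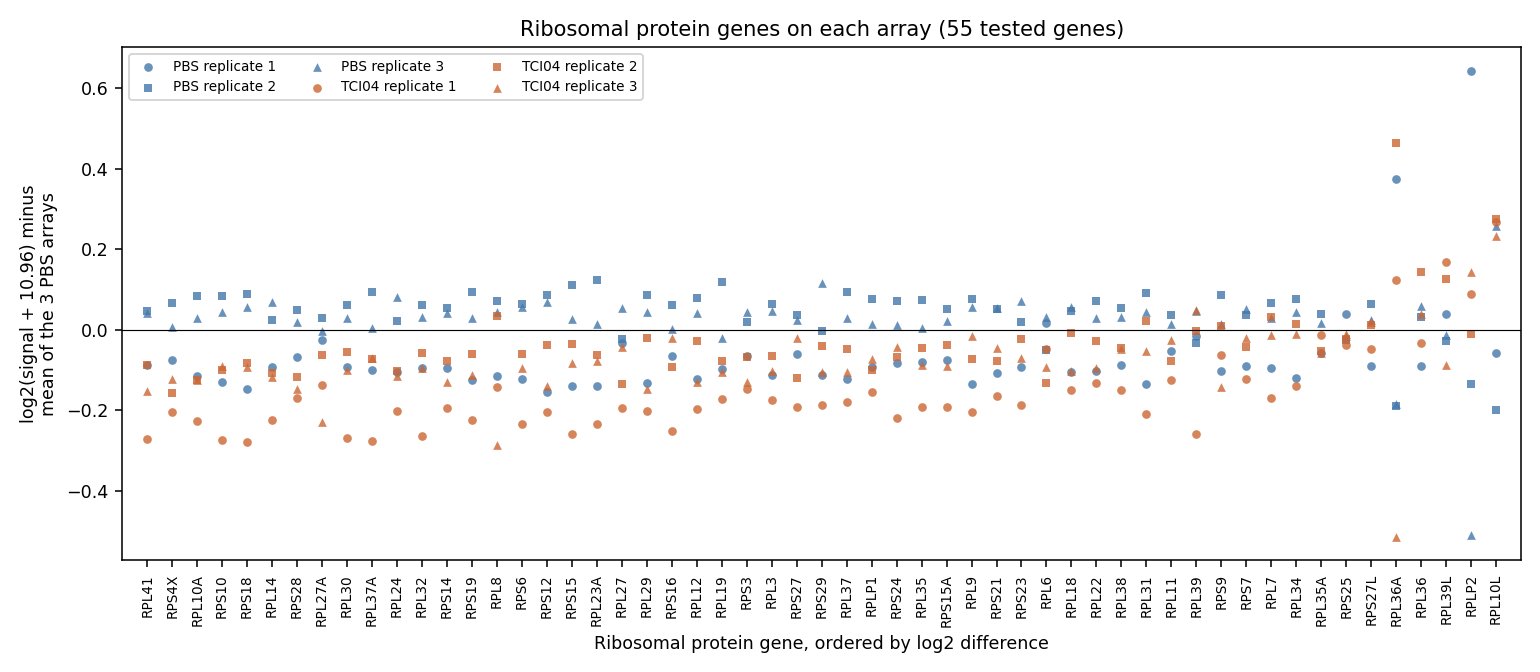
Each point is the log2(signal + 10.96) of a tested ribosomal protein gene on 1 array, minus that gene's mean over the 3 PBS arrays (blue, PBS; orange, TCI04; marker shape, replicate). Genes run from the lowest to the highest log2 difference on the authors' scaling, 50 of 55 below 0 (25 after quantile normalization, 2 with median centring), and PBS replicate 1 lies among the TCI04 arrays for most of them.

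The members moved up and down together from array to array. Relative to each gene's PBS mean, the median over the 55 members was -0.09, 0.06 and 0.03 on the log2 scale in PBS replicates 1, 2 and 3, and -0.19, -0.05 and -0.09 in TCI04 replicates 1, 2 and 3. The ranges of the groups therefore overlapped, since PBS replicate 1 lay between the TCI04 arrays. In both groups replicate 1 was lowest and replicate 2 highest, and TCI04 lay below PBS at each number. Of the 55 members, 44 had their lowest value on TCI04 replicate 1 and 38 their highest on PBS replicate 2. On PBS replicate 1, 50 members lay below their PBS mean, as did 51, 45 and 50 on TCI04 replicates 1, 2 and 3. Large and small subunit genes followed the same order of arrays, with medians of -0.17 and -0.19 on TCI04 replicate 1 and of 0.06 and 0.06 on PBS replicate 2.

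**Figure D2:**
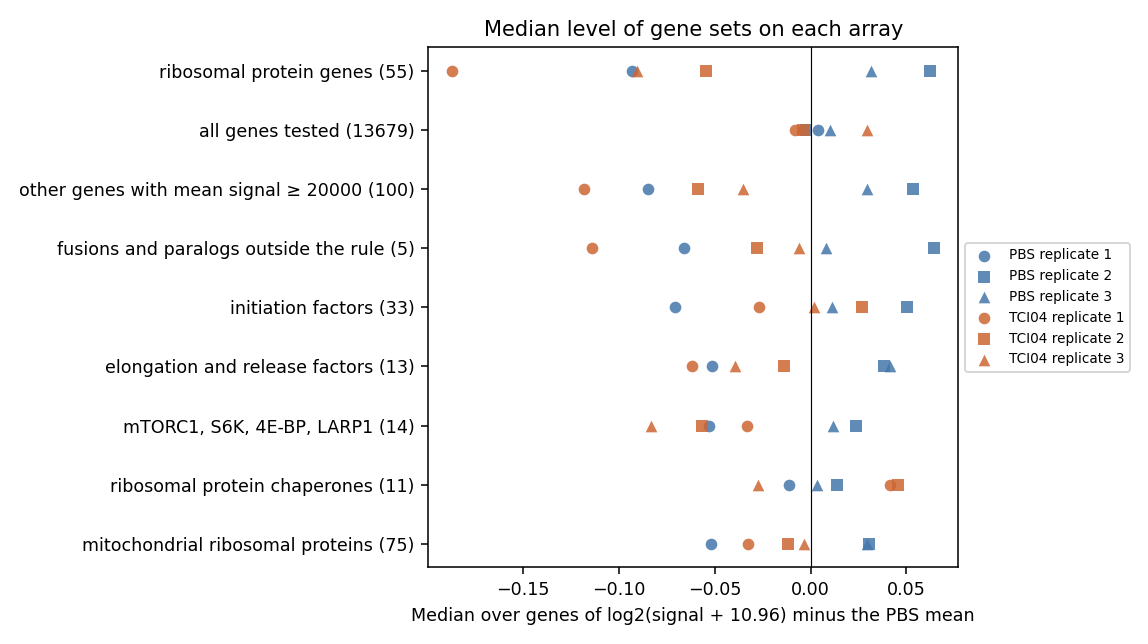
Each point is the median, over the tested genes of a set (number in brackets), of log2(signal + 10.96) on 1 array minus the gene's PBS mean. For the ribosomal protein genes PBS replicate 1, at -0.09, lies within the range of the TCI04 arrays (-0.19 to -0.05), and the other genes with a mean signal of at least 20000 show a like order of arrays.

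Signal level moved with this result. Of the 55 members, 49 had a mean signal of at least 20000, a range that held 149 tested genes in all and was set after the values were seen. Among these 49, 48 had a lower mean with TCI04, with a median log2 difference of -0.11. Among the 100 other genes in that range, 90 were lower on average (46 after quantile normalization, 10 with median centring). Their median was -0.07. The groups did not overlap, toward lower values, for 15 of the 100, against 6.89% of all genes. That count was 5 after quantile normalization and 0 with median centring (all genes, 5.3% and 1.67%). The 6 members under that signal had a median of 0.05, with 2 of 6 lower. Quantile normalization, which gives all arrays the same distribution of values, brought the median of the members from -0.11 to 0.0042 and that of the 100 other bright genes from -0.07 to 0.0061. Median centring moved the median of all genes to 0.16, and the members then lay at 0.05, still 0.11 below all genes. The part of signal level or scaling in the lower means of the members was not tested beyond these values.

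**Figure D3:**
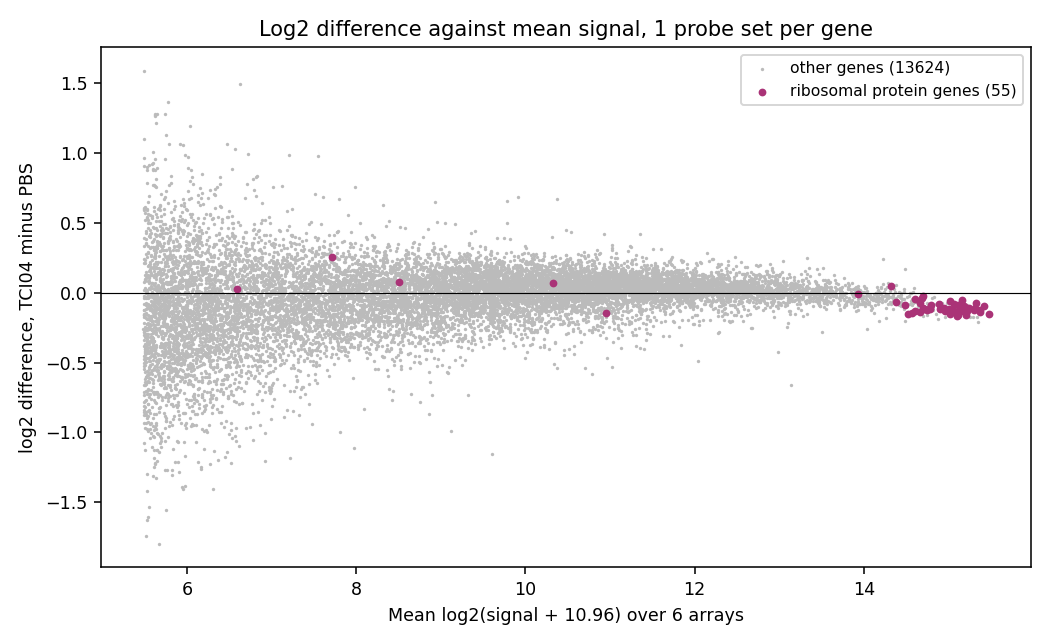
Log2 difference (TCI04 minus PBS) against the mean log2(signal + 10.96) over 6 arrays, with 1 probe set per gene; purple points are the 55 ribosomal protein genes and grey points the 13624 other tested genes. Most members sit at the bright end, below 0 on the authors' scaling, with a median of -0.11 (0.0042 after quantile normalization and 0.05 with median centring).

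In the small subunit all 21 members had a lower mean on the authors' scaling, with a median log2 difference of -0.11, but 10 of 21 did after quantile normalization and 1 with median centring. RPS4X, the X-linked form of a protein of the subunit body, measured 35668, 39399 and 37795 in PBS replicates 1, 2 and 3 and 32643, 33723 and 34559 in TCI04 replicates 1, 2 and 3. Every TCI04 array lay under every PBS array. The means were 37621 ± 1871 with PBS and 33642 ± 961 with TCI04 (SD, n = 3 each). The log2 difference was -0.16 ± 0.05 (standard error), its 95% interval ran from -0.28 to -0.04, and the adjusted p in limma was 0.697. It was -0.04 after quantile normalization and -0.00054 with median centring, and the other probe set of the gene gave -0.15.

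RPS28, a small protein near the mRNA exit, measured 24308, 26361 and 25839 with PBS and 22664, 23504 and 23008 with TCI04. These groups did not overlap either, with a log2 difference of -0.14 ± 0.05 (standard error; limma, adjusted p = 0.697), 0.02 with median centring. Its other probe sets gave -0.10 and 0.06. RPS3, which lines the mRNA entry and is also known for a role in DNA repair, measured 26646, 28262 and 28724 with PBS and 25165, 26582 and 25476 with TCI04. The groups were separated by a narrow margin, from 26582 to 26646, with a log2 difference of -0.11 ± 0.05 that turned to 0.05 with median centring (limma, adjusted p = 0.697).

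For RPS6, the protein that S6 kinases phosphorylate, the arrays measured 30611, 34791 and 34622 with PBS and 28315, 31931 and 31177 with TCI04. The groups overlapped through PBS replicate 1, and the log2 difference was -0.13, with -0.13 and -0.11 from its other tested probe sets and 0.03 with median centring. Of the list of proteins along the mRNA channel, RPS3, RPS15, RPS23 and RPS28 were measured, and all 4 were lower on average on the authors' scaling, at a median of -0.12 (-0.02 after quantile normalization and 0.04 with median centring). RPS14, a protein of the platform reduced in a form of myelodysplasia, had a log2 difference of -0.13 from its bright probe set, with groups that overlapped. Its 2 other tested probe sets, at mean signals of 83.5 and 58.4, gave -0.46 and -1.28 and had standard errors of 0.26 and 0.49.

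In the large subunit 29 of 34 members had a lower mean on the authors' scaling, 15 after quantile normalization and 1 with median centring, and the median log2 difference was -0.11. RPL10A, a protein of the large subunit's mobile stalk near the tRNA exit, measured 36815, 42282 and 40710 with PBS and 34073, 36576 and 36585 with TCI04. Its groups did not overlap, and the log2 difference was -0.16 ± 0.06 (standard error; limma, adjusted p = 0.697), -0.07 from its other probe set and 0.0016 with median centring. RPL14 measured 23251, 25208 and 26029 with PBS and 21228, 23045 and 22873 with TCI04. All TCI04 arrays were lower, with a log2 difference of -0.15 ± 0.06 (limma, adjusted p = 0.697), -0.04 and -0.02 from its other probe sets and 0.01 with median centring.

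RPL27, one of the genes mutated in Diamond-Blackfan anaemia, measured 41315, 41590 and 43894 with PBS and 36918, 38491 and 41051 with TCI04. Its TCI04 arrays were all lower, at a log2 difference of -0.12 ± 0.05, which turned to 0.01 after quantile normalization and 0.04 with median centring (limma, adjusted p = 0.697). RPL27A measured 2037, 2117 and 2070 with PBS and 1886, 1987 and 1770 with TCI04, on a probe set with a mean signal of 1978. The groups did not overlap, and the log2 difference was -0.14 ± 0.07, -0.16 after quantile normalization and 0.02 with median centring. Over the 7 genes without overlap the log2 differences thus ran from -0.16 to -0.11, and median centring brought each of them to between -0.00054 and 0.05.

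RPL41, singled out after its values were seen because its log2 difference was the lowest of the 55, encodes a very short and basic protein. It measured 35089, 38471 and 38342 with PBS and 30894, 35107 and 33557 with TCI04. The groups overlapped by a narrow margin, since PBS replicate 1 lay just under TCI04 replicate 2. Its log2 difference was -0.17 ± 0.06 (limma, adjusted p = 0.697), -0.04 after quantile normalization and -0.01 with median centring.

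Of the proteins that bind with the small 5S ribosomal RNA and can inhibit MDM2 when ribosome assembly fails, RPL11 was measured. It gave 25611, 27241 and 26844 with PBS and 24368, 25172 and 26088 with TCI04, a log2 difference of -0.08 with overlapping groups, and 0.01 after quantile normalization. RPLP1, an acidic protein of the stalk that recruits elongation factors, measured 37829, 42518 and 40753 with PBS and 36218, 37625 and 38328 with TCI04. Its groups overlapped through PBS replicate 1, and the log2 difference was -0.11 (0.01 after quantile normalization). The partner RPLP2 was represented by a dim probe set that gave 542, 312 and 238 with PBS and 366, 341 and 381 with TCI04. The PBS arrays alone spread more than 2-fold, the log2 difference of 0.07 had an interval from -0.45 to 0.60, and a second, dimmer probe set gave -0.70.

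Of the list of proteins in or near the exit tunnel, 5 had a probe set of their own. All 5 had a lower mean (2 of 5 after quantile normalization, 0 with median centring), with a median of -0.11. RPL39, the small tunnel protein of this group, measured 41514, 41056 and 43369 with PBS and 35087, 41873 and 43420 with TCI04. Only TCI04 replicate 1 was low, and the log2 difference of -0.07 turned to 0.02 without it and to 0.06 after quantile normalization. Of the genes mutated in Diamond-Blackfan anaemia, an inherited failure of red cell production, 14 were tested and 14 were lower on average (4 after quantile normalization, 0 with median centring), at a median of -0.11. RPL35A, which belongs to that list, had a log2 difference of -0.04, and its other 4 probe sets ran from -0.35 to 0.47.

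The 3 tested paralogs had log2 differences from -0.01 to 0.26, and none passed the test. RPL10L, an intronless testis paralog of RPL10, measured 173, 156 and 218 with PBS and 220, 221 and 214 with TCI04. Its TCI04 arrays lay close together and overlapped PBS replicate 3, with a log2 difference of 0.26 and an interval from -0.10 to 0.62 (limma, adjusted p = 0.725). RPL39L, a paralog of RPL39 active in testis and in some cancers, measured 1284, 1225 and 1236 with PBS and 1403, 1362 and 1174 with TCI04, a log2 difference of 0.07. TCI04 replicate 3 was the lowest of the 6 arrays and the other 2 TCI04 arrays the highest.

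RPS27L, a paralog of RPS27 that p53 can induce, measured 14738, 16413 and 15959 with PBS and 15183, 15808 and 15892 with TCI04. Its log2 difference was -0.01 with an interval from -0.13 to 0.12, whereas RPS27 itself gave 37698, 40332 and 39969 with PBS and 34436, 36174 and 38743 with TCI04, a log2 difference of -0.11. RPL3, whose muscle paralog failed the filter, had a log2 difference of -0.11 with groups that overlapped through PBS replicate 1. The difference between a paralog and its partner was not tested. Among the other members, RPL36, which measured 18960, 20639 and 21022 with PBS and 19726, 22288 and 20732 with TCI04, had a log2 difference of 0.05, while -0.08 came from its other probe set. RPL36A, on a probe set with a mean signal of 88.0, gave 113, 72.7 and 73.0 with PBS and 92.9, 121 and 55.8 with TCI04, groups that overlapped widely, and an interval from -0.64 to 0.69.

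The other 33 members not described singly so far, 14 of the small and 19 of the large subunit, all had a lower mean on the authors' scaling (15 of 33 after quantile normalization, 0 with median centring), and for all 33 the groups overlapped. In 13 of the 14 and 17 of the 19 the overlap came from PBS replicate 1 alone, since the 3 TCI04 arrays lay under PBS replicates 2 and 3. The small subunit genes among them ran from -0.15 for RPS10 to -0.02 for RPS25, and those of the large subunit from -0.14 for RPL30 to -0.04 for RPL34 (named after their values were seen), with a median of -0.11 in each. RPS10, a protein of the beak of the small subunit, measured 44006, 51013 and 49641 with PBS and 39833, 44877 and 45234 with TCI04. Its PBS replicate 1 lay between the TCI04 arrays. RPS25, which many viral mRNAs need for internal initiation, measured 27495, 26290 and 26431 with PBS and 26060, 26324 and 26554 with TCI04. Here PBS replicate 1 was the highest array, as in 2 of the 55 members, and the groups overlapped. None of the 33 passed, with adjusted p from 0.697 to 0.919 in limma.

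For 32 members, 2 or more probe sets were tested. Among their 56 further probe sets, 17 had a mean signal of at least 20000 and all 17 had a lower mean with TCI04 on the authors' scaling, with log2 differences from -0.16 to -0.04. The 39 dimmer ones ran from -1.28 to 0.47, with 29 lower and a median of -0.06. In 11 members a tested probe set had the opposite sign to the one representing the gene. Of the 55 chosen probe sets, 42 had names ending in _s_at or _x_at, which mark probes shared between transcripts or prone to cross-hybridise, so signal from pseudogenes or relatives cannot be told apart. Without such probe sets 30 members were tested, 25 had a lower mean on the authors' scaling, against 50.9% of all genes, and the median was -0.08.

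The precision bounds the size of a measured difference only on the authors' scaling, and for a spread that may be technical. The intervals do not cover a change of scaling, and median centring moved the median of all genes to 0.16. Over the members the 95% interval of the log2 difference reached 0.14 to each side at the median, and for 52 of 55 it lay within 1.5-fold in either direction. The exceptions were RPLP2, RPL36A and RPL10L, on dim probe sets. The SD of log2 signal within a group had a median of 0.09 over the PBS arrays and 0.08 over the TCI04 arrays, close to the size of the median difference of -0.11.

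**Figure D4:**
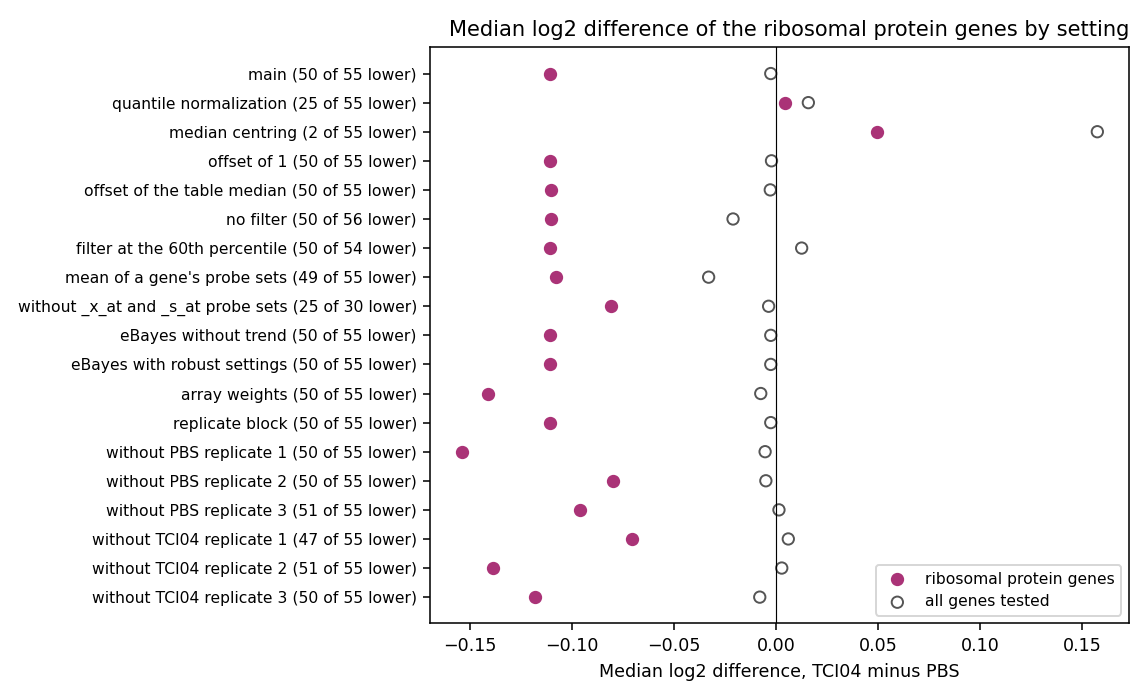
Median log2 difference (TCI04 minus PBS) of the ribosomal protein genes (filled) and of all tested genes (open) on the authors' scaling (main) and under each alternative, with the number of members that had a lower mean. The median of the members ran from -0.15 to -0.07 except after quantile normalization (0.0042) and median centring (0.05).

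Other parts of the translation apparatus were read for context, from lists chosen by knowledge of the pathway, and none of their members passed the adjusted threshold. Elongation and release factors had a lower mean for 10 of 13 genes, with a median log2 difference of -0.05 (6 of 13 after quantile normalization, 3 with median centring). EEF1A1, which brings aminoacyl-tRNA to the ribosome and is itself a TOP mRNA, measured 44254 ± 1552 with PBS and 40692 ± 2209 with TCI04 (SD, n = 3), a log2 difference of -0.12 that turned to 0.0064 after quantile normalization and 0.04 with median centring. TPT1, another TOP mRNA, had -0.17 (adjusted p = 0.697 in limma), with no overlap, -0.04 after quantile normalization and -0.01 with median centring. EEF2, the translocation factor, had -0.12, -0.09 after quantile normalization and 0.04 with median centring. Its lowest value was on TCI04 replicate 3, and without that array the difference was -0.05. EEF1A2, the muscle and nerve form of EEF1A1 on a dim probe set, measured 372, 423 and 294 with PBS and 139, 282 and 104 with TCI04. Its log2 difference was -1.11 ± 0.30 (standard error), with an unadjusted p of 0.00342 and an adjusted p of 0.697 in limma. Without TCI04 replicate 3 the difference was -0.82.

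Initiation factors had a lower mean for 17 of 33 genes (16 after quantile normalization, 3 with median centring) and a median of -0.01, led by p by EIF3G at -0.22 and the scaffold EIF4G1 at -0.54, whose standard error was 0.27. EIF4G1 measured 1991, 2102 and 1907 with PBS and 1715, 1972 and 760 with TCI04, so that the low value was TCI04 replicate 3, the array that stood apart by RNA quality. Without that array its log2 difference was -0.12 and that of EIF3G -0.12. Of the 14 genes named from these lists, 9 had their lowest value on that array. Mitochondrial ribosomal proteins, which build the separate ribosome of that organelle, had 41 of 75 lower and a median of -0.0042, but 53 of 75 after quantile normalization and 6 with median centring. MRPS2 and MRPS12 had -0.24 and -0.20, and -0.17 and -0.12 without TCI04 replicate 3. The list of mTORC1, S6 kinases, 4E-BPs and LARP1 had 9 of 14 lower (8 after quantile normalization, 3 with median centring), with TSC2, an inhibitor of mTORC1, at -0.69 from a dim probe set (-0.39 without TCI04 replicate 3) and 0.04 from its other one, and EIF4EBP1 at -0.09 (0.07 with median centring). Chaperones and import factors of ribosomal proteins had 4 of 11 lower (5 after quantile normalization, 2 with median centring), with AAMP at -0.25 (-0.15 without TCI04 replicate 3) and IPO7 at 0.11. Of the fusion and paralog genes outside the naming rule, 4 of 5 were lower (4 after quantile normalization, 0 with median centring), among them FAU, which encodes a ubiquitin-like protein fused to a small subunit protein, at -0.06, and RPL7L1 at -0.09 (0.10 and 0.07 with median centring).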

How the data were processed

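The deposited intensity values, linear and 1 per probe set and array, were made with MAS5 per the submitters' processing notes and scaled per array by the authors to a common trimmed mean (2% left out at each end). The software version, detection calls and build are not given in the sources used here. Signals were converted to log2(signal + 10.96). The 62 control probe sets and those with a mean under the 40th percentile were left out, and the other 32746 were fitted in R 4.3.3 with limma 3.58.1 (eBayes allowing a trend of variance with level, two-sided tests, Benjamini-Hochberg adjustment). Platform annotation gave names; 41037 of 41091 single-symbol probe sets matched RefSeq by gene ID. Members and lists were chosen with earlier results of these data known. Named genes were those with groups that did not overlap (or, on a side with fewer than 3, the smallest p), the stalk, 5S-binding and paralog genes, RPS6, those with the most discordant probe sets or the largest PBS spread, and the lists' 2 smallest p. The steps were tested on simulated data. The main fit did not take same-numbered arrays as pairs. Over all tested probe sets their deviations correlated at 0.0036 to 0.06, and the values for numbers 2 and 3 were the largest of all combinations. The members' medians followed the same order of numbers in both groups. Whether same-numbered arrays belong together was not tested. The number of arrays limits the precision.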

Additional observations from a re-analysis of the deposited data

Results flagged for a closer look

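Among the 63 tested probe sets that the annotation gives to a ribosomal protein gene together with other genes, which entered no comparison above, 2 were higher on all TCI04 arrays than on any PBS array, where 6.65% of all genes were. Another 7 were lower on all TCI04 arrays (6.89% of all genes), none passed the adjusted threshold (limma), and 53 of the 63 had a lower mean on the authors' scaling, with a median log2 difference of -0.09. Direction under other scalings was not computed for them.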

How the results depend on the processing

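No setting gave a member past the adjusted threshold, and offsets, filters, robust settings, array weights and the replicate block left 50 of the tested members with a lower mean and a median log2 difference of -0.14 to -0.11. Scaling changed the direction. Median centring subtracts 1 value per array, so every log2 difference moved by the same amount and the members stayed 0.11 below all genes. Why quantile normalization changed the direction was not tested. Quantile normalization gave 25 lower members, where 45.1% of all genes were lower, and a median of 0.0042. At an unadjusted p under 0.05 it gave 1 member in each direction (all genes, 2.85% lower and 3.31% higher). Without overlap there were 4 members in each direction (5.3% and 7.55%). Median centring gave 2 lower members, where 22.1% of all genes were lower, and a median of 0.05. At that p it gave 0 lower and 1 higher member (all genes, 0.965% and 18.3%). Without overlap there were 0 lower and 4 higher members (1.67% and 29.2%). Of the 55 members, 25 turned sign under quantile normalization and 48 with median centring.

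The count of 8 lower members at an unadjusted p under 0.05 became 3 without a filter and 5 with probe sets averaged by gene. It was 3 without probe sets ending in _x_at or _s_at, 0 without a variance trend and 33 with array weights. The share of all genes at that p was not computed under these settings. Whether the changes were particular to the members is therefore not shown, and their cause was not tested. Without probe sets ending in _x_at or _s_at, 25 of 30 were lower, against 50.9% of all genes, with fewer genes tested. Of the 30, 2 lower members did not overlap, where 7.01% of all genes were lower without overlap. On the higher side 1 did not overlap, and the share of all genes was not computed. With the replicate number as a block, 40 members had an unadjusted p under 0.05 toward lower values. The members' smallest adjusted p was 0.344 (limma), and no call changed. For this fit too the share of all genes at that p was not computed, so the count is not shown to be particular to the members. The labels give the arrays only a number. Over all tested probe sets, deviations of same-numbered arrays correlated at 0.0036, 0.06 and 0.05, and PBS replicate 1 correlated best with TCI04 replicate 3. The values for numbers 2 and 3 were the largest of all combinations. For the members, the median was lower with TCI04 at each number, and both groups had the same order of numbers. Whether same-numbered arrays belong together was not tested.

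With single arrays left out, the lower members at an unadjusted p under 0.05 ranged from 0 to 40 and the higher ones from 0 to 1, the members without overlap from 7 to 46 on the lower and 0 to 2 on the higher side, the members with a lower mean from 47 to 51, and the median from -0.15 to -0.07. Without PBS replicate 1, 40 and 46 lower members were reached.

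Named members that turned, all failing the correction, were these. With median centring they turned by the shift common to all genes. Under quantile normalization RPL27 gave 0.014, RPLP1 0.014, RPL11 0.011, RPS27L 0.017, RPL39 0.062, RPS27 0.0093 and RPL35A 0.053. With median centring RPS28 gave 0.015, RPL10A 0.0016, RPL14 0.011, RPL27 0.036, RPS3 0.045, RPL27A 0.018, RPLP1 0.051, RPL11 0.084, RPS6 0.031, RPS27L 0.154, RPL3 0.046, RPL39 0.089, RPS27 0.049, RPS14 0.027 and RPL35A 0.119. With the mean of probe sets RPL36 gave -0.015, RPLP2 -0.311 and RPS27L 0.024, and without probe sets ending in _x_at or _s_at RPLP2 gave -0.697. With single arrays left out, RPS27L ranged from -0.051 to 0.027, RPL36A from -0.196 to 0.294, RPLP2 from -0.181 to 0.396 and RPL39 from -0.131 to 0.023.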
